A study of Mus musculus with 23 samples.

Results

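The T cell receptor repertoire was compared between a syngeneic Nras-mutant mouse melanoma model given both BGB-283 and trametinib and the same model without treatment at D11, the later of the sampled times. All TRA and TRB entries were used, in the 3 combination libraries and the 2 control libraries of that day, so 5 of the 23 libraries of the series carried the comparison. They held 8614 of the 35389 TRB clonotypes and 6810 of the 29047 TRA clonotypes in the whole table. Entries of one chain that agreed in V, in J and in the translated CDR3 were one clonotype.

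The model came from NIL, a melanoma line with Nras Q61R, and was irradiated with UV to raise its mutation load, per the series' description. Groups differed in the drug (none, trametinib, BGB-283 or both) and in the day, D4 or D11. The event that starts the day count, the dose, the strain and the age are not in the labels, nor is it stated that each library is a different animal. The p-values below therefore measure only the spread between these libraries, which may be technical. Every library came from the same line, so the model is a single tumour line. The tissue label names the melanoma line, and a table of receptor transcripts holds no tumour or T cell markers against which it could be checked.

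An αβ T cell carries a receptor of a TRA and a TRB chain, and each chain gene is joined from a V and a J segment, with a D segment in TRB, during development in the thymus. Bases are trimmed and added at the joint, and the joint is read out as the CDR3 loop, which lies over the peptide when the receptor binds. Cells that descend from one parent share both chains, so a clonotype that takes up much of a library marks a clone that has divided or whose cells hold more receptor RNA. In bulk RNA, fewer cells and less RNA per cell cannot be told apart. Trametinib inhibits MEK and BGB-283 inhibits RAF kinases, 2 steps of the pathway that mutant Nras keeps switched on.

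The CDR3 loops below, written out where they had 14 residues or fewer, were among the 3 largest of each library and are given with their V and J segments, because they held a large part of the TRB counts and recur in the segment and length values below. One loop, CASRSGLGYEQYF, was among the 3 largest in both combination replicate 1 and replicate 2 and is written once.
Combination replicate 1, TRBV13-2 TRBJ2-3: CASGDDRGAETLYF
Combination replicates 1 and 2, TRBV3 TRBJ2-7: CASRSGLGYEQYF
Combination replicate 2, TRBV16 TRBJ2-5: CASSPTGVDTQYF
Combination replicate 2, TRBV3 TRBJ2-5: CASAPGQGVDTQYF
Combination replicate 3, TRBV19 TRBJ1-1: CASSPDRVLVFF
Combination replicate 3, TRBV5 TRBJ2-1: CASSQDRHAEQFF
Combination replicate 3, TRBV23 TRBJ2-7: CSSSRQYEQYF
Control replicate 1, TRBV16 TRBJ1-1: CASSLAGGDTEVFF
Control replicate 2, TRBV16 TRBJ2-7: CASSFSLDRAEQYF
Longer loops among the 3 largest were of TRBV29 with TRBJ2-4 (16 residues) in combination replicate 1, of TRBV16 with TRBJ2-2 and of TRBV12-2 with TRBJ2-7 (15 residues each) in control replicate 1, and of TRBV2 with TRBJ2-1 (17 residues) and TRBV5 with TRBJ1-3 (15 residues) in control replicate 2.

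The largest TRB clonotype held 13.8% of TRB counts in combination replicate 1 (95% Wilson interval 13.64 to 13.99). In combination replicate 2 it held 21.6% (21.5 to 21.8), and in combination replicate 3 it held 24.1% (23.9 to 24.3). It held 17.6% in control replicate 1 (17.2 to 18.0) and 14.5% in control replicate 2 (14.3 to 14.8). The values overlapped between the groups. These intervals cover counting error only, and they treat every count as independent. On that basis the widest half-interval of any TRB clonotype of 1% or more was 0.414 percentage points, in control replicate 1. That library held 32534 TRB counts but only 1749 estimated TRB molecules, a unit explained below. Where several counts are copies of the same molecule, the intervals are too narrow.

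Depth differed between the groups. The 3 combination libraries held 151348, 320420 and 185978 TRB counts, and the 2 control libraries held 32534 and 77777. TRA counts were 143391, 393802 and 192054 in the combination libraries and 37504 and 127261 in the control libraries. All 5 libraries together with the other 18 ranged from 70038 to 798622 counts of both chains, and control D11 replicate 1 was the lowest of all. No count was 1 or 2, the lowest was 3, and 20 was far more frequent (3655 values) than 19 (804) or 21 (509). Counts were therefore also turned into estimated molecules at 20 counts each, which gave 8725, 18368 and 9857 TRB molecules in the combination libraries and 1749 and 4226 in the control libraries. Counts were rounded up to whole molecules. Of values from 3 to 20, 8.78%, 3.96% and 6.42% equalled 20 in the combination libraries and 34.4% and 28.6% in the controls. The unit may therefore not mean the same in both groups, and the effect on comparisons in estimated molecules was not tested.

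More clonotypes were seen in the combination libraries, the difference did not pass the test, and it was smaller at equal depth. TRB clonotypes numbered 2256, 4328 and 1074 under the combination and 298 and 749 in the controls. The groups did not overlap, and the mean on the log2 scale was 2.21 higher, or 4.63-fold (exact permutation test, two-sided, p = 0.20, adjusted p = 0.579 over 22 measures). With 3 against 2 libraries the smallest p this test can give is 0.1, so no measure could pass 0.05. Left out in turn, control replicate 1 took the fold to 2.92, control replicate 2 to 7.35 and combination replicate 3 to 6.61.

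Thinned to 32534 TRB counts each, the combination libraries kept 2019.8, 3126 and 932 clonotypes against 298 and 739 in the controls, a 3.85-fold difference. Thinned to 1749 estimated molecules, they kept 757, 702 and 379 against 298 and 503. At equal molecules the groups overlapped, with combination replicate 3 below control replicate 2, and the log2 difference was 0.60 (exact permutation test, p = 0.30). At equal counts TRA clonotypes numbered 1548, 2417 and 733 under the combination and 332 and 790.0 in the controls. The TRA groups overlapped, and the log2 difference was 1.45 (exact permutation test, p = 0.30).

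**Figure D1:**
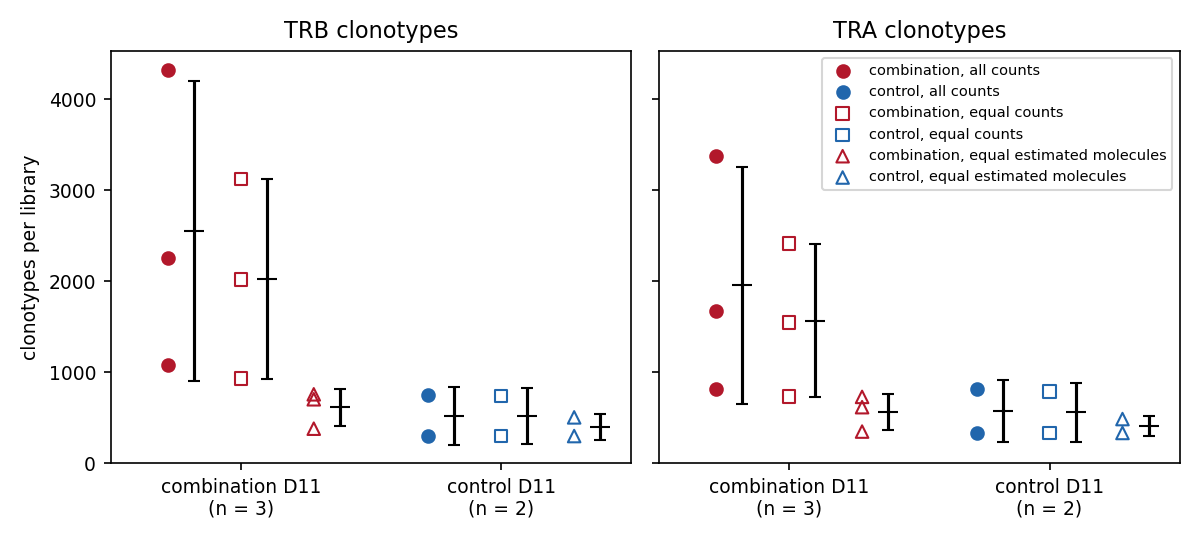
Clonotypes per library (vertical axis) in the 3 combination and 2 control libraries of D11, for TRB (left) and TRA (right). Circles are all counts, open squares equal counts and triangles equal estimated molecules; the black bars are mean ± SD. The TRB circles sit at 1074 to 4328 under the combination and 298 to 749 in the controls, and the triangles overlap.

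The large clonotypes, those of 1% or more of a chain's counts in a library, overlapped in number between the groups. TRB had 10, 8 and 10 of them in the combination libraries and 15 and 7 in the controls. They held 46.0%, 51.4% and 67.9% of TRB counts under the combination and 50.8% and 43.1% in the controls. These shares overlapped (difference 8.18 percentage points, exact permutation test, p = 0.50). Without combination replicate 3, the most dominated library, the difference was 1.79 points.

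The 10 largest TRB clonotypes held 46.0%, 52.9% and 67.9% under the combination and 45.1% and 45.7% in the controls. By counts both controls lay below all 3 combination libraries, although combination replicate 1 cleared them by little (difference 10.2 points, exact permutation test, p = 0.20). In estimated molecules the 10 largest held 39.97%, 46.2% and 64.1% against 42.3% and 42.1%. The groups then overlapped, with combination replicate 1 below both controls. Without combination replicate 3 the difference by counts was 4.06 points. Clonality is an index that is 0 where all clonotypes are equal in size and 1 where there is a single one. At equal counts it was 0.309, 0.390 and 0.437 for TRB under the combination and 0.229 and 0.265 in the controls, which did not overlap (exact permutation test, p = 0.20). In estimated molecules it was 0.207, 0.252 and 0.341 against 0.203 and 0.207, which overlapped.

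The large TRA clonotypes numbered 15, 14 and 12 under the combination and 13 and 12 in the controls. Their share of TRA counts was 47.6%, 57.3% and 65.5% under the combination and 42.8% and 50.4% in the controls. The shares overlapped (exact permutation test, p = 0.30). The largest TRA clonotype held 16.2%, 10.2% and 28.4% under the combination and 6.11% and 13.03% in the controls.

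The middle of the size range separated the groups more clearly than its top. Clonotypes between 0.1% and 1% held 13.8%, 18.0% and 14.4% of TRB counts under the combination and 41.9% and 37.0% in the controls. For TRA the same class held 18.2%, 18.4% and 19.8% under the combination and 50.7% and 29.0% in the controls. The groups did not overlap in either chain. The class was picked after its values were seen and is given without a test. In control replicate 1 it reached down to clonotypes of 2 estimated TRB molecules, against 9 or more in the combination libraries. Thinned to equal estimated molecules, the class still held 26.8%, 21.7% and 19.8% of TRB under the combination and 45.9% and 44.8% in the controls. For TRA the values at equal molecules were 20.6%, 17.1% and 20.97% against 49.3% and 29.7%. In the remaining D11 groups the class held 40.9% ± 17.8 of TRB counts (SD, n = 3) with trametinib alone and 27.6% ± 14.5 (SD, n = 3) with BGB-283 alone. At D4 it held 16.01% ± 0.631 (SD, n = 3) under the combination and 25.8% ± 6.37 (SD, n = 3) in the controls.

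**Figure D2:**
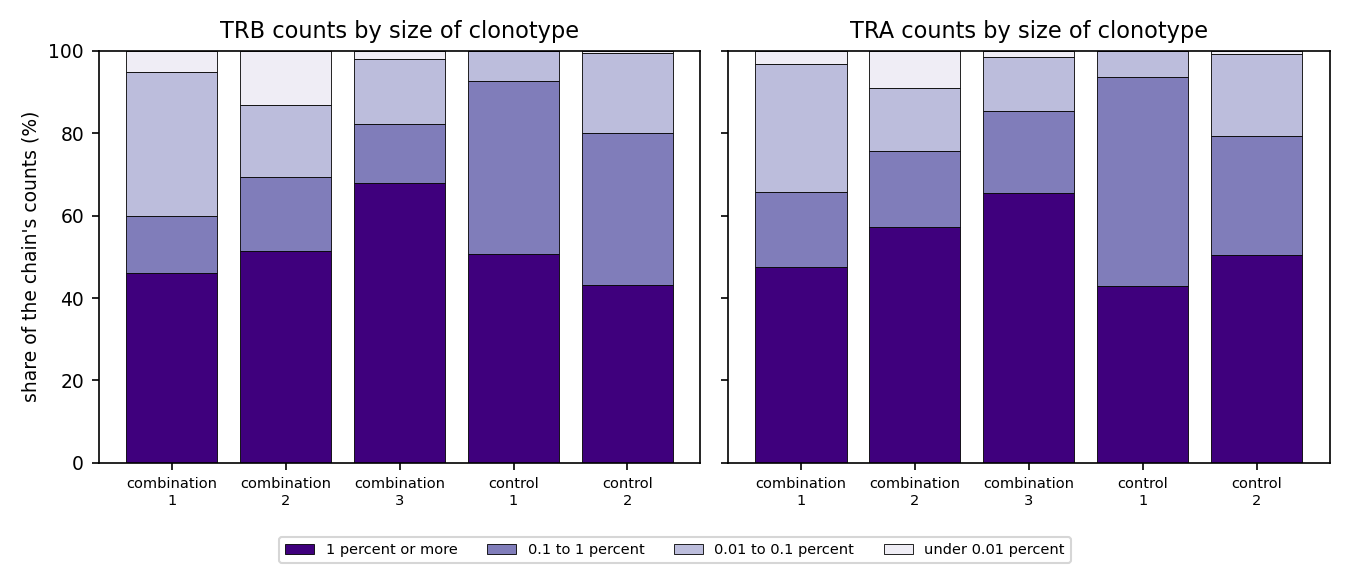
Share of each chain's counts (vertical axis, percent) held by clonotypes of 4 size classes in each D11 library, for TRB (left) and TRA (right). The band of 0.1 to 1% is wide in both controls (41.9% and 37.0% of TRB) and narrow in the 3 combination libraries (13.8% to 18.0%), while the band of 1% or more overlaps between the groups.

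Large TRB clonotypes were mostly listed in a single library. Of 27 distinct large TRB clonotypes in the combination libraries, 18 were listed in no other library of the series, and of 22 in the controls, 20 were. For TRA it was 18 of 39 in the combination libraries and 18 of 25 in the controls. No TRB clonotype of any size was found in all 3 combination libraries, 61 were in 2 of them and 7536 in one alone. The 2 controls shared 2 TRB clonotypes. In TRA, 9 clonotypes were in all 3 combination libraries and 6 in both controls.

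One pair of combination libraries held a large clonotype in common in each chain. The TRB loop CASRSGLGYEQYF (TRBV3 TRBJ2-7) held 4.51% of TRB counts in combination replicate 1 and 21.6% in replicate 2, a ratio of 4.80. It also held 12.99% in BGB-283 D4 replicate 3 and was listed at 0 in the remaining 20 libraries. In TRA, this loop was shared between the same libraries:
Combination replicates 1 and 2, TRAV4N-3 TRAJ12: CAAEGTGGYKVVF
It held 1.78% and 8.54% of TRA counts, a ratio of 4.79, and also 3.08% in BGB-283 D4 replicate 3 and 0.711% in BGB-283 D11 replicate 2. Whether both chains came from the same cells was not measured. Of the 8 large TRB clonotypes of combination replicate 2, the shared one alone was above 0 in replicate 1. Another large clonotype, TRAV7D-2 TRAJ5 with a loop of 15 residues, held 2.64% of TRA in combination replicate 2 and 1.93% in replicate 3, and was found in 4 libraries outside D11.

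Some large clonotypes of different libraries differed by a single residue. The pair below is TRB, of TRBV16 with TRBJ1-1, and differs at position 8 counted from the first cysteine. It is shown because the loops are alike but not identical, in different libraries.
Combination replicate 1, TRBV16 TRBJ1-1: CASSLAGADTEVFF
Control replicate 1, TRBV16 TRBJ1-1: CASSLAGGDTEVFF
The TRB pair held 1.92% in combination replicate 1 and 4.49% in control replicate 1. The loop of control replicate 1 also held 0.591% in combination replicate 2 and was listed in 3 libraries outside the 5. In TRA, 4 large loops of 14 residues, of TRAV7D-2 with TRAJ37, differed from each other at position 5 alone. They held 1.58% in combination replicate 1, 1.67% and 1.63% in combination replicate 2 and 1.23% in control replicate 1. TRAV7D-2, chosen after its values were seen, had 7 large TRA clonotypes in the combination libraries, the most of any V segment there, and 3 in the controls, as many as TRAV6N-6. It also held 8.15% and 7.99% of the remaining TRA counts. The near-identical loops occurred in both groups.

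In each library the most used TRB pair was almost entirely a single clonotype: 97.3% of TRBV13-2 TRBJ2-3 in combination replicate 1, 95.5% of TRBV3 TRBJ2-7 in replicate 2 and 96.4% of TRBV19 TRBJ1-1 in replicate 3. In the controls it was 95.2% of TRBV16 TRBJ2-2 and 95.8% of TRBV2 TRBJ2-1. Of the 10 most used TRB pairs, 8, 8 and 10 held a large clonotype under the combination and 10 and 7 in the controls. For TRA it was 10 of 10 in all 5 libraries.

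Of 288 possible TRB pairs, 232, 250 and 192 were seen under the combination and 110 and 172 in the controls. These numbers did not overlap. They were not adjusted for depth and were not tested. The effective number of pairs, which counts pairs weighted by how evenly they are used, was 55.2, 41.7 and 25.5 for TRB under the combination and 42.6 and 56.8 in the controls. The groups overlapped (exact permutation test, p = 0.40). Without combination replicate 1 the difference of -8.87 became -16.1, and without combination replicate 3 it became -1.24. With the large clonotypes set aside, the effective number rose to 127, 124 and 93.8 under the combination and to 76.6 and 121 in the controls, again overlapping. Without control replicate 1 that difference turned from 16.3 to -5.75. With all clonotypes, the effective number of TRA pairs was 134, 88.7 and 33.3 under the combination and 88.3 and 89.4 in the controls, which overlapped. With large clonotypes set aside it was 422, 364 and 174 against 151 and 279, again overlapping (difference 105.5, exact permutation test, p = 0.40). That difference was 41.5 without control replicate 1, 54.6 without combination replicate 1, 169 without control replicate 2 and 178 without combination replicate 3.

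No V-J pair or segment passed the test across all of them. With edgeR's quasi-likelihood test over all 23 libraries, 0 of 264 TRB pairs and 0 of 1941 TRA pairs passed an adjusted p of 0.05 (0.0% in each direction). At an unadjusted p of 0.05, 18 TRB pairs (6.82%) and 56 TRA pairs (2.89%) were below it. DESeq2 called 43 of 278 TRB pairs, 41 higher and 2 lower, and 328 of 3237 TRA pairs, 310 higher and 18 lower. The controls were the less deep libraries, and the part of depth in these calls was not tested. The shares of 32 TRB pairs (12.1%) were higher in every combination library than in either control, and those of 28 (10.6%) were lower. For TRA these were 103 pairs (5.31%) and 46 pairs (2.37%).

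The TRB pair TRBV2 TRBJ2-1 was among the lowest. It held 0.187%, 0.0265% and 0.106% of TRB counts under the combination and 0.965% and 15.1% in the controls. Both controls lay above the 3 combination libraries (log2 change -6.24 ± 2.10 SE, edgeR adjusted p = 0.523). In control replicate 2 one clonotype of 17 residues made up 95.8% of it. With every clonotype counted once it was the single TRB pair that edgeR called (log2 change -2.96 ± 0.70 SE, adjusted p = 0.00609). It then stood at 8, 3 and 7 clonotypes under the combination and 2 and 22 in the controls, so most of the control clonotypes lay in replicate 2. Without control replicate 2 the log2 change by counts was -3.18 (edgeR adjusted p = 0.556). Over its alternatives the adjusted p ranged from 0.00609 to 0.724.

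At the level of segments edgeR called 0 of 24 TRBV, 0 of 12 TRBJ, 0 of 118 TRAV and 0 of 41 TRAJ segments (0.0% each). Below an unadjusted p of 0.05 were 2 TRBV (8.33%), 2 TRBJ (16.7%), 12 TRAV (10.2%) and 5 TRAJ segments (12.2%). DESeq2 called 7 of 143 TRAV segments, 6 higher and 1 lower, and none of the other 3 kinds. TMM scaling raised the median log2 change of all TRBJ segments by 1.20 and of all TRBV segments by 0.50, so signs of small changes depend on the scaling.

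TRBJ2-5 was higher without overlap in each of the 3 ways of counting: by all counts, without large clonotypes and with each clonotype once. It held 12.4%, 25.4% and 12.4% of TRB counts under the combination and 9.17% and 5.57% in the controls. All 3 combination libraries lay above both controls, as did 1 of 12 TRBJ segments (8.33%) (log2 change 1.18 ± 0.64 SE, edgeR adjusted p = 0.274). With large clonotypes set aside it held 13.3%, 15.5% and 18.3% against 9.19% and 9.79%. This difference passed edgeR's test (log2 change 0.73 ± 0.20 SE, adjusted p = 0.00571). With every clonotype counted once it was 11.4%, 11.9% and 11.5% of clonotypes against 10.4% and 8.95%, which did not overlap but did not pass (edgeR log2 change 0.31, adjusted p = 0.499). With TMM scaling the log2 change was 2.40 (edgeR adjusted p = 0.0496), before taking off the shift of 1.20 shared by all TRBJ segments. Without control replicate 2 it fell to 0.87, and without combination replicate 2 to 0.75. Over its alternatives the adjusted p ranged from 0.00571 to 0.897. The combination libraries held 7 large clonotypes with TRBJ2-5 and the controls 2.

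The J segment with the smallest p was TRBJ2-2. It held 2.68%, 2.67% and 1.55% of TRB counts under the combination and 21.4% and 3.45% in the controls. The groups did not overlap, as for 4 of 12 TRBJ segments in that direction (33.3%) (log2 change -2.43 ± 0.84 SE, edgeR adjusted p = 0.0619). In control replicate 1, 82.3% of it was the library's largest clonotype, of TRBV16. Without control replicate 1 the log2 change was -0.58, and without control replicate 2 it was -3.21 (edgeR adjusted p = 0.0127). With large clonotypes set aside TRBJ2-2 held 4.97%, 5.51% and 4.83% against 5.53% and 6.07%, and with each clonotype once 5.10%, 5.22% and 5.03% against 6.04% and 5.74%. The order was kept both times, with differences of under 1.3 percentage points (log2 change -0.19 and -0.18, edgeR adjusted p = 0.863 and 0.775).

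Among TRBV segments none was higher in every combination library (0.0%), and 4 of 24 were lower (16.7%). TRBV2 held 0.959%, 2.62% and 3.15% under the combination and 4.80% and 16.9% in the controls. The groups did not overlap (log2 change -2.27 ± 1.01 SE, edgeR adjusted p = 0.341). TRBV12-2 held 2.62%, 2.09% and 2.06% against 10.6% and 4.198%, and TRBV20 held 0.764%, 0.512% and 0.352% against 2.55% and 1.25%. In control replicate 1 a single clonotype made up 62.8% of TRBV12-2 and 72.8% of TRBV20. In control replicate 2 a single clonotype made up 85.8% of TRBV2. With large clonotypes set aside TRBV2 held 1.78%, 2.67% and 9.81% under the combination and 7.27% and 4.2045% in the controls, which overlapped. With each clonotype counted once, TRBV2 was again lower in every combination library than in either control. TRBV19 held 11.1%, 6.63% and 40.5% under the combination and 4.88% and 10.8% in the controls, which overlapped. In combination replicate 3, 59.5% of it was the clonotype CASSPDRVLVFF. With large clonotypes set aside TRBV19 held 13.5%, 13.7% and 18.9% against 9.92% and 11.3%, which did not overlap. TRBV31 held 0.4995%, 0.407% and 0.0968% under the combination against 0 counts and 0.1003% in the controls. The lowest listed count of 3 would be 0.00922% of TRB in control replicate 1. That library held 1749 estimated TRB molecules, so a single molecule would be a larger share. Without control replicate 2, which leaves that library as the only control, edgeR called TRBV31 (adjusted p = 0.0481), and with both controls it did not (adjusted p = 0.341).

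V usage differed less between libraries once large clonotypes were set aside. The share of TRB counts that would have to move to another V segment to make 2 libraries alike was 42.6% to 49.8% among the combination libraries, 41.0% between the controls, and 35.4% to 53.4% between the groups. With large clonotypes set aside these values were 9.94% to 21.01%, 16.8%, and 14.3% to 22.3%. The range between groups overlapped the values within groups. For J segments with each clonotype counted once, the values were 1.72% to 6.31% among the combination libraries, 5.71% between the controls and 6.14% to 8.09% between the groups. The TRBJ2 cluster, the J segments that lie after the second TRB D segment, held 79.2%, 83.6% and 54.2% of TRB counts under the combination and 76.9% and 60.8% in the controls. Without large clonotypes it held 66.96%, 66.2% and 67.4% against 67.5% and 68.4%.

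**Figure D3:**
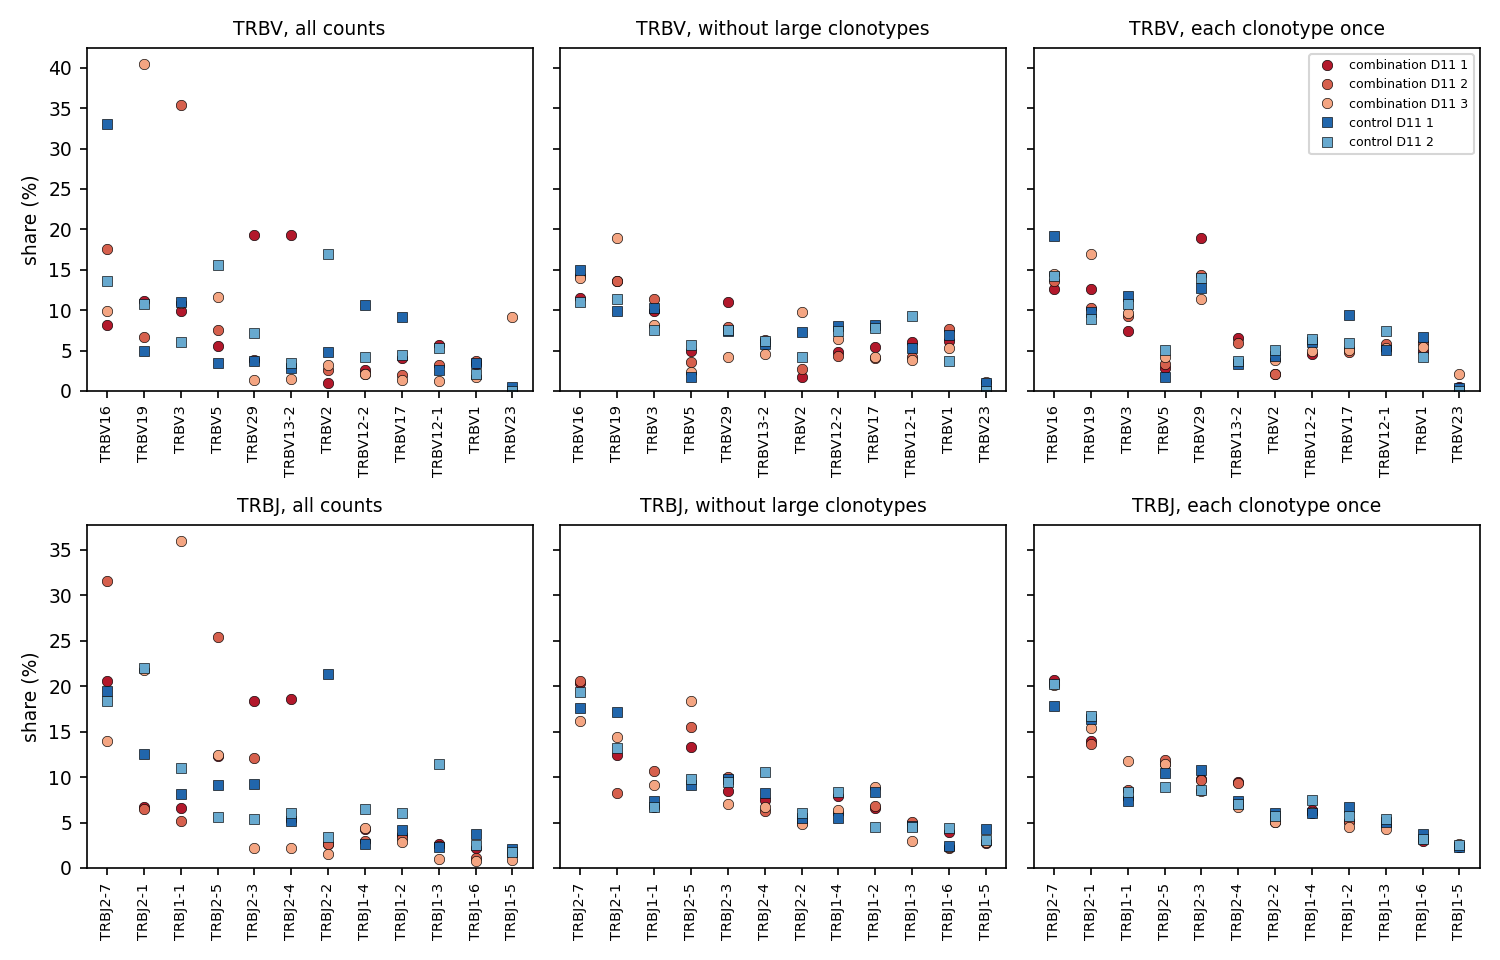
Share of TRB (vertical axis, percent) of the 12 most used V segments (top) and all 12 J segments (bottom) in each D11 library, by all counts, without clonotypes of 1% or more, and with each clonotype once; circles are combination and squares control libraries. The spread of single segments, up to 40.5% for TRBV19 in combination replicate 3, is widest by all counts, and TRBJ2-5 stays higher in the combination libraries in all 3 panels.

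Among TRA segments, TRAV6N-7 held 5.94%, 5.28% and 12.6% of TRA counts under the combination and 0.344% and 1.62% in the controls. The groups did not overlap, as for 13 of 118 TRAV segments in that direction (11%) (log2 change 3.02 ± 1.21 SE, edgeR adjusted p = 0.430). The largest TRAV6N-7 clonotype, a different one in each combination library, made up 82.7%, 70.3% and 93.7% of the segment. With large clonotypes removed the log2 change was 0.45, with each clonotype once it was 0.61, and without control replicate 2 it was 4.53. DESeq2 called TRAV6N-7 (adjusted p = 0.0169), and over its alternatives the adjusted p ranged from 0.0169 to 0.997. TRAV6N-6 lay the other way, at 0.573%, 0.323% and 1.30% against 8.30% and 13.9% (log2 change -3.92 ± 1.41 SE, edgeR adjusted p = 0.393). The largest TRAV6N-6 clonotype, a different one in each control, made up 66.0% and 93.8% of the segment there. With large clonotypes removed the log2 change of TRAV6N-6 was -0.0054, with each clonotype once it was -1.17, and its adjusted p was 0.172 or higher in each alternative. Of the TRAV segments, 14 (11.9%) lay lower without overlap.

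TRAV14D-2 held 0.127%, 0.117% and 0.365% under the combination and no count in the controls. The lowest listed count of 3 would be 0.00800% and 0.00236% of TRA there. The controls held 2013 and 6717 estimated TRA molecules, so a single molecule would be a larger share. TRAJ27 held 2.91%, 3.85% and 14.2% under the combination and 0.707% and 1.56% in the controls (log2 change 2.62 ± 1.08 SE, edgeR adjusted p = 0.410). With large clonotypes removed the log2 change of TRAJ27 was 0.91, with each clonotype once it was 1.12, and without combination replicate 3 it was 1.57. All 3 combination libraries were higher, as for 3 of 41 TRAJ segments (7.32%), while 7 (17.1%) were lower. The mouse TRA locus holds copies of many V segments that differ little, several names in the table join 2 of them, and 64 of 143 TRAV names matched a RefSeq symbol of the GRCm38.p6 assembly. Counts between such copies are uncertain.

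Invariant receptors were looked for by their segments. Invariant natural killer T cells, which see lipids on CD1d, carry TRAV11 joined to TRAJ18 with a nearly fixed loop.
TRAV11 with TRAJ18 held 1394, 2568 and 820 TRA counts under the combination and 0 and 387 in the controls. As shares these were 0.972%, 0.652% and 0.427% against 0% and 0.304%. The lowest listed count would be 0.00800% of TRA in control replicate 1. That library held 2013 estimated TRA molecules, so a single molecule would be a larger share. Both controls lay below the combination libraries (exact permutation test, p = 0.1, the smallest it can give, adjusted p = 0.20 over 4 lists). The most counted loop, of 15 residues, made up most of these counts, with 0.884%, 0.617% and 0.377% of TRA against 0% and 0.304%. The V segments that often pair with it in mice, of the TRBV13 family with TRBV29 and TRBV1, held 45.1%, 13.8% and 6.42% of TRB counts under the combination and 11.9% and 16.03% in the controls, which overlapped. TRAV1 with TRAJ33, the chain of mucosal-associated invariant T cells, had 0 counts in all 5 libraries.

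TRB CDR3 loops were shorter in the combination libraries. The mean length by counts was 14.27, 13.72 and 12.98 residues under the combination and 14.37 and 14.71 in the controls. The groups did not overlap, though combination replicate 1 lay close to control replicate 1 (difference -0.88 residues, exact permutation test, p = 0.20, adjusted p = 0.579 over 22 measures). Without combination replicate 3 the difference was -0.54 residues. Each clonotype counted once, the mean was 14.02, 13.96 and 13.80 residues against 14.16 and 14.12. These values did not overlap either, and the difference was smaller, -0.21 residues (exact permutation test, p = 0.20). Once clonotypes 1 residue away from a large one of the same V, J and length were removed, it was -0.11 residues. Such neighbours were 3.41%, 3.42% and 10.5% of TRB clonotypes in the combination libraries and 5.03% and 6.28% in the controls.

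Large and remaining clonotypes were also measured apart. By counts the remaining TRB clonotypes averaged 13.95, 13.86 and 13.82 residues under the combination and 14.07 and 14.19 in the controls, which did not overlap. In the combination libraries large TRB clonotypes were longer than the rest by 0.70 residues in replicate 1 and shorter by values of -0.29 in replicate 2 and -1.23 in replicate 3. In the controls they were longer by 0.59 and 1.19 residues. Combination replicate 1 lay within the control range and the other two below it (exact permutation test, p = 0.30). Loops of 16 residues or more took 24.3%, 11.1% and 3.03% of TRB counts under the combination and 14.9% and 28.1% in the controls. In control replicate 2 the 17-residue loop of TRBV2 and TRBJ2-1 alone held 14.5%. Loops of 12 residues or fewer took 37.3% in combination replicate 3, where the 12-residue loop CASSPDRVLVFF held 24.1%, and 5.92% to 9.70% in the other 4 libraries.

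Length per clonotype was also compared within segments. Within J segments, mean TRB length per clonotype was shorter under the combination in 10 of 12, and within the V segments with enough clonotypes in 8 of 13. At one fixed J usage the means were 14.02, 13.97 and 13.84 residues under the combination and 14.13 and 14.12 in the controls. TRA lengths overlapped by both measures: by counts they were 13.1, 13.3 and 13.9 residues against 13.7 and 13.5, and per clonotype 13.50, 13.53 and 13.67 against 13.62 and 13.57.

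**Figure D4:**
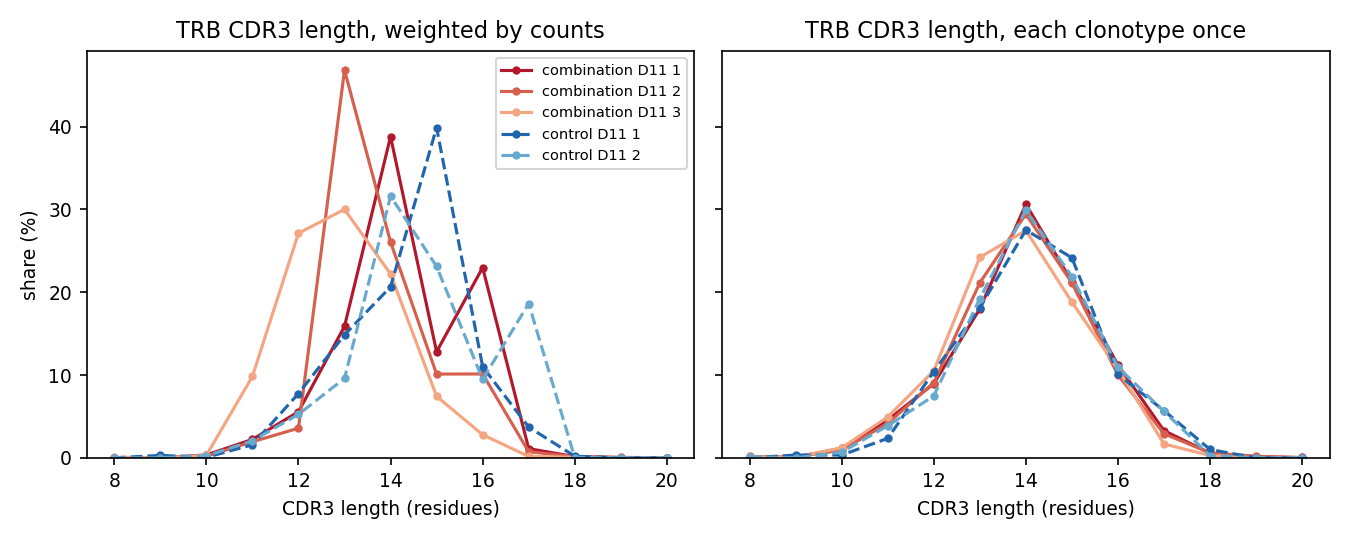
Share of TRB (vertical axis, percent) by CDR3 length in residues (horizontal axis) for each D11 library, weighted by counts (left) and with each clonotype once (right); solid lines are combination and dashed lines control libraries. By counts the peaks differ between libraries, at 13 residues in combination replicate 2 (46.8%) and 15 in control replicate 1 (39.9%), and by clonotype all 5 curves peak at 14.

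Of the 22 measures of the 2 chains, 7 had groups that did not overlap by counts, and none passed after adjustment. Some of the 7 overlapped in estimated molecules, as given above. The direction at D11 was set against that at D4, where 3 combination and 3 control libraries were sampled. At D4 the 10 largest TRB clonotypes held 41.8% ± 9.69 (SD, n = 3) under the combination and 54.3% ± 7.06 (SD, n = 3) in the controls. At D11 the values were 55.6% ± 11.2 (SD, n = 3) and 45.4% ± 0.427 (SD, n = 2). The combination thus lay lower by 12.5 points at D4 (-12.5) and higher by 10.2 at D11, a change of 22.7 points (exact permutation of the day labels, p = 0.045, adjusted p = 0.248 over 22 measures). TRB clonotypes at equal counts differed in the same direction on both days, by log2 2.99 at D4 and 1.94 at D11, and the change of -1.05 did not pass (exact permutation, p = 0.255). TRB length per clonotype was 0.13 residues longer under the combination at D4 and -0.21 at D11, a change of -0.35 residues (exact permutation, p = 0.06, adjusted p = 0.264).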

How the data were processed

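Per the labels' protocols, a QIAseq kit for immune repertoires made the libraries from total RNA. The deposited table holds whole-number counts per chain, V, J and CDR3, not scaled between libraries, per the file headers and values. GRCh38, a human assembly, is named in the submitters' processing notes. Which aligner or caller ran is not given in the sources used here. Of 64710 entries, 274 with an unresolved residue (0.0227% of counts) were left out.

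Shares are percent of a chain's counts. Libraries were thinned over 100 draws. Measures were compared with exact permutation tests (10 assignments, or 200 between days) and Benjamini-Hochberg adjustment. Segments and pairs were tested with edgeR 4.0.16 (R 4.3.3) on chain totals, in 8 groups, without TMM, and with DESeq2 1.42.0. The SE beside an edgeR log2 change was the size of that change divided by the square root of the test's F value. It was not estimated directly. Python 3.11.15 was used. Code was tested on simulated data. Alternatives were TMM, no filter, other thresholds, estimated molecules, each clonotype once, large clonotypes removed and each library left out.

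Named segments and pairs were drawn from the 3 with the smallest p in each direction and the 3 with the largest mean share in each group; named clonotypes were the 3 largest per library, those of 1% or more in several libraries and those leading a library's top pair. TRBV17, TRAV7D-2, the size class of 0.1 to 1% and clonotypes with a near-identical partner were added after their values were seen. The members and lists were chosen with earlier results of these data known. Shared replicate numbers were treated as names, not as pairs.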

Additional observations from a re-analysis of the deposited data

Results flagged for a closer look

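The difference between combination and control changed between D4 and D11, at an unadjusted p under 0.05, in 4 of 22 measures, all of TRB, and none passed after adjustment (adjusted p = 0.248 for each). The share of the 10 largest TRB clonotypes moved by 22.7 percentage points from D4 to D11 (exact permutation of the day labels, p = 0.045). The share of TRB clonotypes of 1% or more moved by 25.1 points (exact permutation, p = 0.04): at D4 it was 47.5% ± 8.74 (SD, n = 3) under the combination and 64.4% ± 1.20 (SD, n = 3) in the controls. The effective number of TRB V-J pairs moved by -45.8 (exact permutation, p = 0.03), from 68.2 ± 16.7 (SD, n = 3) against 31.2 ± 10.8 (SD, n = 3) at D4. Without large clonotypes it moved by -45.2 (exact permutation, p = 0.025), from 136 ± 7.91 (SD, n = 3) against 74.2 ± 6.34 (SD, n = 3) at D4. With any one D11 library left out these changes ranged from 16.6 to 27.5 points, 18.8 to 29.7 points, -53.1 to -38.2 and -67.2 to -23.1. The last of these was -23.1 without control replicate 2 and -67.2 without control replicate 1. In estimated molecules the changes were 24.6, 28.4, -53.4 and -44.3. Depth differed between the groups, and its part in these changes was not tested further.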

How the results depend on the processing

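Depth and the number of libraries both limit the comparison. The 2 controls held fewer counts and molecules than any combination library. With 3 against 2 libraries the exact permutation test cannot give a p under 0.1. Replicate numbers were shared by combination and control (1 and 2) and were treated as names. Their deviations in TRB segment use correlated at -0.10 and 0.21, and for TRA at -0.13 and -0.014. With only 2 controls, the deviations of one control are those of the other with the sign turned. These correlations therefore cannot show whether the replicates pair. With the replicate block the TRA effective number of V-J pairs turned from -3.65 to 22.3, and no segment or pair was called that was not called without it.

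Of the values of the main results under the alternatives, 416 kept their direction and their side of the threshold, 15 turned direction and 8 counts moved by over 1.5 times. The cause was not tested. For the 22 measures compared at D11 the exact permutation test cannot give a p under 0.1. Their side of the 0.05 threshold was thus fixed beforehand, and only their direction could differ. The TRA effective number of V-J pairs was 11.9 in estimated molecules and -27.9 to 22.3 with a library left out. TRA length per clonotype was 0.0071 residues with counts under 20 removed and -0.078 to 0.0056 with a library left out. The TRB effective number without large clonotypes was -0.70 with a Simpson-based index and -5.75 to 38.3 with a library left out. The difference in the number of large clonotypes was -6.5 for TRA at a 0.5% threshold, -0.17 for TRA and 0.67 for TRB at 2%, and -5.67 to 2.33 for TRB with a library left out. With a library left out, TRA large minus rest length was -0.61 to 0.00095, its change between days -0.60 to 0.0097, and the change between days in the number of large TRB clonotypes -2.67 to 5.33. edgeR called 0 to 1 TRBV and 0 to 1 TRBJ segments with a library left out, 1 TRBJ segment with TMM, 1 TRBJ segment with large clonotypes removed and 1 TRB pair with each clonotype once. DESeq2 called 7 of 143 TRAV segments, 43 of 278 TRB pairs and 328 of 3237 TRA pairs.

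Among named segments and pairs, 11 log2 changes turned direction. The far end of the range over the libraries left out is in parentheses where it is not given elsewhere. Without combination replicate 3, TRBV23 was at -1.07 and TRBJ1-1 at -0.70 (up to 1.16); without combination replicate 1, TRBJ2-4 was at -0.58 (up to 1.10). Without control replicate 1, TRAV12N-3 was at 0.055 (down to -3.58), TRAJ13 at 0.83 (down to -3.39) and TRBV16 TRBJ2-2 at 0.22 (down to -5.96); without control replicate 2, TRAJ2 was at 11.4 and TRBV29 TRBJ1-1 at 1.503 (down to -4.20). With large clonotypes removed, TRBJ2-4 was at -0.47 and TRAV16D/DV11V16N at 0.20, and with each clonotype once TRBV20 was at 0.058. TRAV6N-6 TRAJ2, TRAV15N-1 TRAJ50 and TRAV6N-6 TRAJ49 gave no value without the control that held their counts.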

Other observations

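The chemistry of the loops' middle residues was compared as a further value. For TRB, mean hydropathy per clonotype was -0.940, -0.951 and -0.9997 under the combination and -0.925 and -0.946 in the controls, which overlapped. For TRA, mean net charge of the middle was -0.21, -0.19 and -0.17 per clonotype under the combination and -0.26 and -0.21 in the controls. All 3 combination libraries lay above both controls by a small margin (difference 0.044, exact permutation test, p = 0.1, the smallest it can give, 1 of 8 such comparisons at that value). Weighted by counts it was -0.26, -0.15 and -0.15 against -0.28 and -0.28.

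TRBV17, named after its values were seen, lay lower under the combination in each way of counting, with 4.13%, 1.98% and 1.33% of TRB counts against 9.18% and 4.46%. Without large clonotypes it held 5.38%, 4.08% and 4.15% against 8.14% and 7.84%. By all counts edgeR did not call TRBV17 (log2 change -1.46 ± 0.78 SE, edgeR adjusted p = 0.341).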
